A study of Rattus norvegicus with 12 samples.

Results

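Thyroid hormone acts in the heart through nuclear receptors, and the genes described here encode these receptors, their dimer partners and the proteins they recruit. The 9 genes named were Thra and Thrb (thyroid hormone receptors alpha and beta), Rxra, Rxrb and Rxrg (the retinoid X receptors), Dio2 (the deiodinase that makes the active hormone T3 inside cells), the coactivators Ncoa1 and Ncoa2 and the corepressor Ncor1. They were looked up by gene name among 32545 genes, and 8 of the 9 had a row. Dio2 was not analysed here. All 8 passed the filter on low values (a mean of at least 0.5 FPKM over the 12 libraries) that left 13910 genes for testing.

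The libraries were made from the free wall of the LV or RV of SD (Sprague-Dawley) rats, an outbred strain, at postnatal day 7 (P7). At P1 the pups had either an arteriovenous fistula between the abdominal aorta and the inferior vena cava, which loads both ventricles with extra volume (VO), or a sham operation. Each of the 4 combinations of surgery and ventricle (sham LV, VO LV, sham RV, VO RV) had 3 libraries. No allele or drug differed between the groups, all of which had surgery at P1, and the labels do not say whether the libraries of a group came from separate animals or whether animals were pooled. The p values therefore measure only the spread between these libraries, which may be technical, and with 3 libraries against 3 an exact permutation test cannot go below p = 0.1.

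Thyroid hormone receptors sit on DNA as dimers with a retinoid X receptor. Without hormone they hold corepressor complexes built on scaffolds such as Ncor1, which carry the histone deacetylase Hdac3. With T3 bound they release these and take up coactivators of the Ncoa family, histone acetyltransferases and the Mediator complex. In rodents the hormone surges after birth, and in the heart it switches myosin from Myh7 to Myh6 and raises the calcium pump Atp2a2.

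The sequences before the start of Thra and Rxra are shown because these were the pair of genes whose levels ran most alike over the 12 libraries and because their windows in the table end at the annotated gene start. Each holds the 250 bases before the start in RefSeq's rat assembly GRCr8, 5′ to 3′ on the gene's strand (the plus strand for both), at chr10:84197891-84198140 for Thra and chr3:31387642-31387891 for Rxra. Capitals mark GC boxes (GGGCGG, or CCGCCC on the other strand), of which there were 4 and 2.
Thra: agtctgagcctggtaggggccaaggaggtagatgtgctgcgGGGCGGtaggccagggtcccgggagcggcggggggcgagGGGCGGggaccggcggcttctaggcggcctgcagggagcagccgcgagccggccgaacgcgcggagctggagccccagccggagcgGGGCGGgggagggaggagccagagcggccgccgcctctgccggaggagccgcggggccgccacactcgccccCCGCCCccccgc
Rxra: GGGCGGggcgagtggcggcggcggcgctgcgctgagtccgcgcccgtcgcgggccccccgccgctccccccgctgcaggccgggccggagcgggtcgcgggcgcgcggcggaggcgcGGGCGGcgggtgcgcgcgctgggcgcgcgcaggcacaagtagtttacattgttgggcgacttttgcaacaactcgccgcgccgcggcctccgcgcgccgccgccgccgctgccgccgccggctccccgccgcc
Of the 8 genes 7 had an entry in that table (Ncoa2 had none), with 8 windows in all because Thra had a second one, at chr10:84209708-84209957. A GC box was found in 6 of the 8 windows, the exceptions being that of Rxrg and the second of Thra, against 30.5% of all 33469 windows of the same length. G and C made up 79.6% of the Thra window shown and 82.8% of that of Rxra, but 44.8% of the second Thra window, against a median of 51.2% over all windows. The letters of a single nuclear receptor half-site (AGGTCA, or TGACCT on the other strand) were in 0 of the 8 and in 14.1% of all windows. A pair of such half-sites in the same direction with 4 bases between them, the spacing known for thyroid hormone receptors, was also in 0 of the 8, and in 0.00299% of all windows. These matches describe the letters of the windows and not bound sites.

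Between 14121713 and 16871371 reads lay on genes in each library, as recovered from the FPKM. Markers of the labelled tissue were present. The summed level of the 6 cardiomyocyte genes with a row was 6265 to 8714 FPKM, and Hand1, a transcription factor of the LV, lay between 2.10 and 5.21 FPKM in the LV libraries and between 0.316 and 1.21 FPKM in the RV libraries. Tbx5, also known for higher levels on the left, was at 3.29 to 4.39 FPKM in sham LV and at 6.74 to 9.01 FPKM in sham RV, the reverse order. In the loaded ventricles it was at 5.49 to 7.44 FPKM in VO LV and at 5.19, 14.9 and 3.75 FPKM in VO RV, of which 2 lay below every VO LV library. The 5 fat genes and the 5 skeletal muscle genes were each below 0.5 FPKM on average. Other markers did not lie level. The 6 atrial cardiomyocyte genes summed to 4576 FPKM in VO RV replicate 2 and 1081 FPKM in sham RV replicate 1, against 225 to 322 FPKM in the other 4 RV libraries and 723 to 1742 FPKM in the 6 LV libraries, of which 4 were above sham RV replicate 1, and the sum of the 7 fibroblast genes was also highest in VO RV replicate 2 (4692 FPKM). The 5 red blood cell genes summed to 9631 to 13192 FPKM in sham LV and to 4899 to 8174 FPKM in sham RV, and the 5 endothelial genes to 429 to 484 FPKM and 300 to 336 FPKM. Since whole myocardium was sequenced, fewer cells of a type and less RNA per cell cannot be told apart.

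The 8 genes covered a wide range of levels in the neonatal ventricle. Per gene length, Thra had the highest mean over the 12 libraries (43.8 FPKM, higher than 88.5% of tested genes), followed by Rxrg (37.1 FPKM), Rxra (20.1 FPKM), Rxrb (15.4 FPKM), Ncor1 (10.7 FPKM), Ncoa1 (9.75 FPKM), Ncoa2 (6.36 FPKM) and Thrb (2.30 FPKM). The order held in all 12 libraries except between neighbours: Thra was above Rxrg in 11 libraries, Rxra above Rxrb in 10, and Ncor1 above Ncoa1 in 11. These 3 pairs of neighbours thus did not differ beyond their spread in every library. The lowest, Thrb, rested on 88 to 356 reads per library and the highest, Thra, on 1695 to 2686. Over all libraries the levels of Thrb and Ncoa2 spread most, with the highest library 3.84 and 3.51 times the lowest, and that of Rxrb least (1.46 times).

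**Figure D1:**
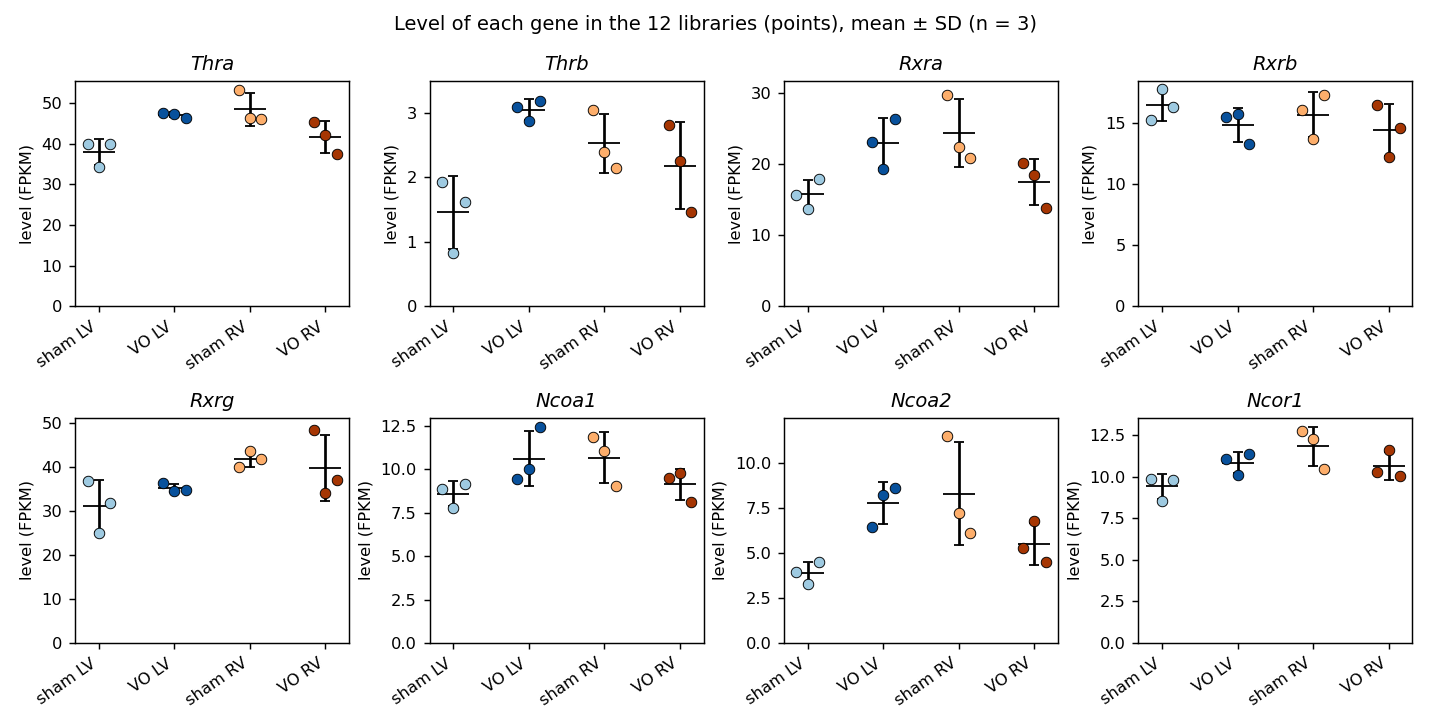
Level of each of the 8 genes in FPKM (y axis, from 0) in every library (points) of sham LV, VO LV, sham RV and VO RV, with the mean and SD of 3 libraries. The sham LV libraries sit below all sham RV libraries for Thra, Thrb, Rxra, Rxrg, Ncoa2 and Ncor1, and Rxrb lies between 12.2 and 17.8 FPKM in all 12.

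The first comparison asked how the ventricles differ without the load. In sham-operated rats 7 of the 8 genes had their lower mean in the LV (as did 48.4% of all tested genes), and Ncoa2 passed the test. For 6 of them (Thra, Thrb, Rxra, Rxrg, Ncoa2 and Ncor1) every sham LV library was below every sham RV library, as was the case for 16.6% of all tested genes. The call needed a Benjamini-Hochberg adjusted p under 0.05 over all tested genes in limma and a fold change over 1.3. It was met by 1 of the 8, against 3.86% of all tested genes. At an unadjusted p under 0.05 with the same fold change, 4 of the 8 (Thrb, Rxra, Rxrg and Ncoa2) were lower and 0 higher, against 9.63% and 8.19% of all genes. The median log2 fold change of the 8 was −0.39, and that of all tested genes was 0.01. Markers of heart muscle cells lay on the same side by their median: of the 6 cardiomyocyte markers 3 were lower without overlap and 1 higher (median −0.30). Of these 6, 3 were lower at an unadjusted p and 1, Ryr2, was called lower. Ryr2 and Myh6 of this list are also among the heart genes that the hormone induces. The summed level of the 6 overlapped, at 8014 to 8504 FPKM in sham LV and 7455 to 8448 FPKM in sham RV. All 5 endothelial and all 5 red blood cell markers were above 0 (medians 0.42 and 0.71), and the part of these cell types was not tested.

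Thra (ENSRNOG00000009066, chromosome 10, 86657285 to 86684933, plus strand), the main thyroid hormone receptor of heart muscle, was at 39.8, 34.3 and 40.0 FPKM in sham LV. In sham RV it was at 53.1, 46.3 and 46.0 FPKM. The LV libraries were all below the RV libraries, and the log2 fold change was −0.35 (standard error, SE, 0.097), which did not pass the adjusted threshold (limma adjusted p = 0.0641), and the fold change of 1.27 was under 1.3. Positions here are those of the deposited table, whose build is not given in the sources used here.

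Thrb (ENSRNOG00000006649, chromosome 15, 8890578 to 9086282, minus strand), the second receptor gene, was at 1.92, 0.827 and 1.62 FPKM in sham LV and at 3.04, 2.39 and 2.14 FPKM in sham RV. The groups did not overlap, and sham LV replicate 2 was the lowest of all 12 libraries. The log2 fold change was −0.66 (SE 0.242, limma adjusted p = 0.119), and −0.41 without sham LV replicate 2. Fold changes are on the scale of log2(FPKM + 0.5), which understates the change of a gene as low as Thrb, whose mean in sham LV was 0.577 times that in sham RV.

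Among the dimer partners, Rxra (ENSRNOG00000009446, chromosome 3, 6211789 to 6295908, plus strand) was at 15.6, 13.7 and 17.9 FPKM in sham LV. It was at 29.7, 22.4 and 20.8 FPKM in sham RV. All LV values lay below all RV values (log2 fold change −0.60, SE 0.176, limma adjusted p = 0.0708), and the adjusted p ranged from 0.0467 without VO RV replicate 3 to 0.240 without sham RV replicate 1. It was 0.0988 with the replicate number as a block, and 0.219 (log2 fold change −0.46) without the 2 RV libraries highest in atrial markers.

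Rxrg (ENSRNOG00000004537, chromosome 13, 85818427 to 85868552, plus strand), the retinoid X receptor typical of striated muscle and brain, was at 36.9, 25.0 and 31.8 FPKM in sham LV and at 40.1, 43.7 and 42.0 FPKM in sham RV. These groups did not overlap either, with a log2 fold change of −0.44 (SE 0.146, limma adjusted p = 0.0976), and −0.29 without sham LV replicate 2. Rxrb (ENSRNOG00000000464, chromosome 20, 3823042 to 3829140, plus strand), the broadly expressed family member, was at 15.3, 17.8 and 16.3 FPKM in sham LV and at 16.1, 13.7 and 17.3 FPKM in sham RV. Its groups overlapped, and of the 8 genes Rxrb alone had a log2 fold change above 0 (0.07, SE 0.127), which was −0.023 without sham RV replicate 2.

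Ncoa2 (ENSRNOG00000007975, chromosome 5, 5616483 to 5694598, plus strand), a p160 coactivator that brings histone acetyltransferases to liganded receptors, was at 3.92, 3.28 and 4.51 FPKM in sham LV. It was at 11.5, 7.22 and 6.09 FPKM in sham RV. The groups did not overlap, and the mean in the LV was 0.472 times that in the RV. The log2 fold change was −0.96 (SE 0.220), which passed the test (limma adjusted p = 0.0423). The call was lost without sham LV replicate 1 (adjusted p = 0.0866), 2 (0.147) or 3 (0.05), sham RV replicate 1 (0.143) or 2 (0.110), or VO LV replicate 1 (0.0582) or 2 (0.0624), which share the model's estimate of spread. Without the 2 RV libraries highest in atrial markers, an alternative chosen after the data were seen, the log2 fold change was −0.71 (adjusted p = 0.112). The call was also lost with the block (limma adjusted p = 0.0838) and with no filter (0.0805).

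Ncoa1 (ENSRNOG00000004068, chromosome 6, 28677540 to 28931843, minus strand), the related p160 coactivator, was at 8.88, 7.78 and 9.14 FPKM in sham LV and at 11.9, 11.1 and 9.02 FPKM in sham RV. The groups overlapped by sham RV replicate 3, and the log2 fold change was −0.29 (SE 0.133, limma adjusted p = 0.199). Ncor1 (ENSRNOG00000055246, chromosome 10, 48629121 to 48772890, minus strand), the scaffold of the corepressor complex, was at 9.89, 8.55 and 9.82 FPKM in sham LV and at 12.7, 12.3 and 10.5 FPKM in sham RV. Its groups did not overlap (log2 fold change −0.31, SE 0.103, limma adjusted p = 0.0953). The corepressor and the coactivators thus lay on the same side of 0 in this comparison.

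Long and short genes did not lie level between the libraries. The median log2 deviation of the longest quartile of tested genes minus that of the shortest was −0.11, −0.19 and −0.11 in the sham LV libraries, and 0.20, 0.11 and −0.03 in the sham RV libraries. It was −0.02, 0.03 and 0.10 in VO LV and −0.11, 0.15 and −0.13 in VO RV. The median deviation of the 8 genes from their own means was −0.12, −0.42 and −0.13 in sham LV, and 0.28, 0.18 and 0.05 in sham RV. In VO LV it was 0.08, 0.05 and 0.22, and in VO RV 0.05, −0.01 and −0.23, and the 2 measures had opposite signs in sham RV replicate 3, VO LV replicate 1 and VO RV replicates 1 and 2. Whether they are related was not tested. With each library's gene-length trend removed, the log2 fold changes of Ncor1 and Ncoa1, with transcripts of 8307 and 7070 bases in the table, were each −0.17. Those of Ncoa2 (−0.89, limma adjusted p = 0.0436), Thra (−0.31) and Rxra (−0.61) stayed closer to the values without the removal. The share of reads from mitochondrial genes ran from 14.4% in sham LV replicate 2 to 26.2% in sham LV replicate 1, and its part in these results, like that of the red blood cell and endothelial levels given above, was not tested.

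**Figure D2:**
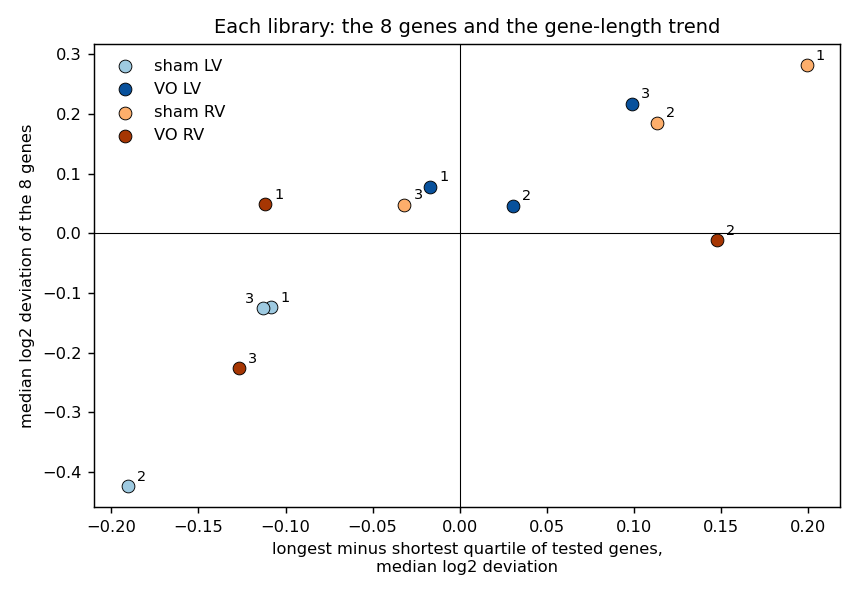
Each point is a library, numbered by replicate: the x axis gives the median log2 deviation of the longest minus the shortest quartile of tested genes, and the y axis the median log2 deviation of the 8 genes from their means over the 12 libraries. The 3 sham LV libraries and VO RV replicate 3 (−0.23) are the 4 lowest and lie on the left, and sham RV replicate 1 lies highest on the right (0.28). VO RV replicate 1 (−0.11 and 0.05), VO RV replicate 2 (0.15 and −0.01), sham RV replicate 3 (−0.03 and 0.05) and VO LV replicate 1 (−0.02 and 0.08) have opposite signs on the axes.

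The second comparison asked how the LV answered the load. In the LV, 7 of the 8 genes had a log2 fold change above 0 after VO (as did 47.2% of all tested genes), and 6 of them (Thra, Thrb, Rxra, Ncoa1, Ncoa2 and Ncor1) did so without overlap, as did 16.7% of all tested genes. None passed the adjusted threshold in limma (0 of 8, against 0.0935% of all tested genes), and 3 of the 8 (Thrb, Rxra and Ncoa2) passed at an unadjusted p, against 9.27% of all genes that did so with a higher level. The median log2 fold change was 0.30, and that of all tested genes was −0.02. The sham LV libraries enter this comparison and the one between sham ventricles, so that the 2 sets of values are not independent. The summed endothelial markers were at 339 to 384 FPKM in VO LV against 429 to 484 FPKM in sham LV, and the fibroblast markers at 1974 to 2427 against 2471 to 2685 FPKM, neither with overlap. Of the 6 cardiomyocyte markers 3 were higher without overlap and 1 lower (median log2 fold change 0.35). Their summed level overlapped, at 8311 to 8714 FPKM in VO LV and 8014 to 8504 FPKM in sham LV. The part of these markers in the results was not tested.

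Thrb and Ncoa2 had the largest differences among the 8. Thrb was at 3.08, 2.86 and 3.18 FPKM in VO LV, all above the highest sham LV library (1.92 FPKM). Its mean was 2.09 times that in sham LV (log2 fold change 0.90, SE 0.242, limma adjusted p = 0.0775). Over the alternatives its adjusted p in limma ran from 0.0478 to 0.278 (without VO LV replicate 3), with 0.109 for the block on replicate number and 0.135 with no filter. It passed the threshold when reads were recovered from the FPKM and tested with voom (1.16, limma adjusted p = 0.0484) and in the model without VO RV replicate 3 (limma adjusted p = 0.0478). Ncoa2 was at 6.45, 8.22 and 8.61 FPKM in VO LV, 1.99 times the sham LV mean (log2 fold change 0.91, SE 0.220, limma adjusted p = 0.0639). The same alternatives brought it past the threshold, with limma adjusted p = 0.0467 for voom and 0.0464 without VO RV replicate 3. It was 0.117 with the block, 0.114 with no filter and 0.257 without VO LV replicate 3, the highest of the alternatives.

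Thra was at 47.5, 47.4 and 46.4 FPKM in VO LV, the tightest of its 4 groups (47.1 ± 0.631 FPKM, SD, n = 3). All were above the sham LV libraries, with a log2 fold change of 0.31 (SE 0.097, limma adjusted p = 0.101). Rxra was at 23.1, 19.3 and 26.3 FPKM, again above every sham LV library (log2 fold change 0.53, SE 0.176, limma adjusted p = 0.117). For both genes the VO LV libraries overlapped with those of sham RV.

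Ncoa1 was at 9.45, 10.0 and 12.4 FPKM in VO LV and did not overlap with sham LV (log2 fold change 0.28, SE 0.133). Ncor1 was at 11.1, 10.1 and 11.4 FPKM, also without overlap (0.20, SE 0.103). Without VO LV replicate 3 the value of Ncoa1 was 0.17, and with the gene-length trend removed that of Ncor1 was 0.10. Rxrg was at 36.5, 34.7 and 34.9 FPKM and Rxrb at 15.5, 15.7 and 13.3 FPKM, and both overlapped with sham LV (log2 fold changes 0.19 and −0.14). Without sham LV replicate 2 the value of Rxrg was 0.05, and without VO LV replicate 3 that of Rxrb was −0.07. The retinoid X receptors therefore did not lie on 1 side of 0 in the loaded LV.

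**Figure D3:**
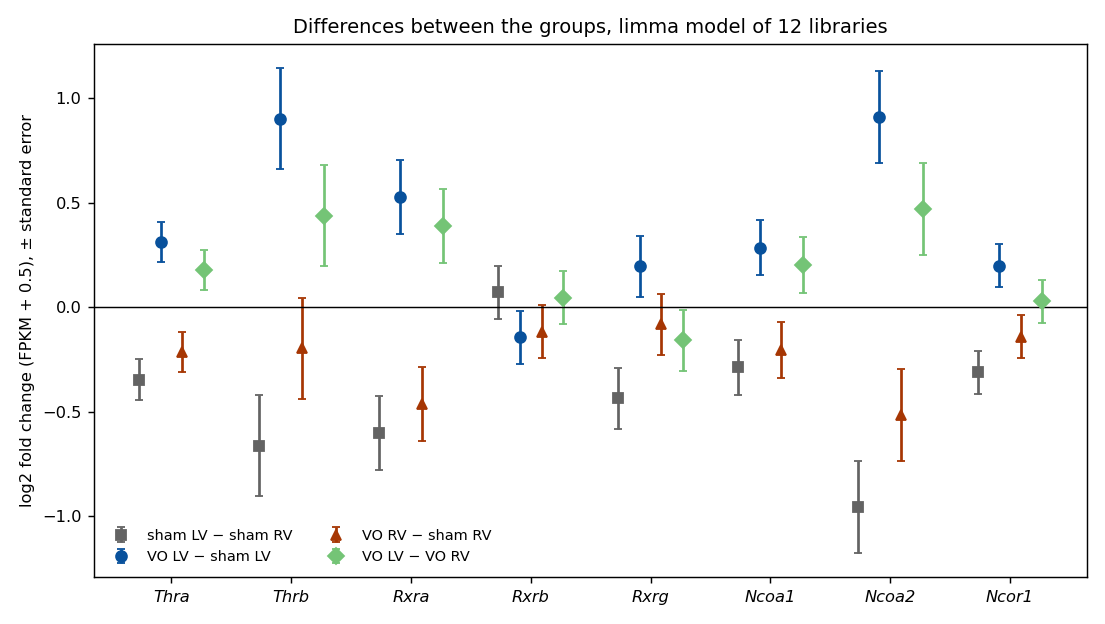
Log2 fold change of each gene (y axis, log2 of FPKM + 0.5, with its standard error from the limma model of 12 libraries) in 4 comparisons. The values for sham LV minus sham RV lie below 0 and those for VO LV minus sham LV above 0 for every gene but Rxrb, and the lowest and highest are those of Ncoa2 (−0.96 and 0.91).

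The third comparison asked the same of the RV, where all 8 genes had a log2 fold change below 0 (as did 49.4% of all tested genes), with a median log2 fold change of −0.20 against 0.00 for all tested genes. Thra and Rxra were below sham RV in every VO RV library, 2 of the 8, against 6.87% of all tested genes. None of the 8 passed the adjusted threshold in limma, nor did any of the tested genes (0.0%), and 2 of the 8 (Rxra and Ncoa2) were lower at an unadjusted p, against 3.06% of all genes. Of the 6 cardiomyocyte markers 3 were lower without overlap (median log2 fold change −0.22), though their sums overlapped (6265 to 8174 against 7455 to 8448 FPKM). Of the 6 macrophage markers 2 were higher at an unadjusted p (median 0.25), against 4.91% of all genes in either direction. Above 0 were 6 of 6 atrial (median 0.69), 6 of 7 fibroblast (0.15) and 5 of 5 endothelial markers (0.06). So were 4 of 6 smooth muscle and pericyte (0.29) and 4 of 5 red blood cell markers (0.09). The part of these markers was not tested.

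In VO RV, Thra was at 45.4, 42.1 and 37.5 FPKM (log2 fold change −0.21, SE 0.097, limma adjusted p = 0.588). Rxra was at 20.1, 18.5 and 13.8 FPKM (−0.46, SE 0.176, limma adjusted p = 0.560). Ncoa2 was at 5.28, 6.74 and 4.47 FPKM, which overlapped with sham RV (−0.52, SE 0.220, limma adjusted p = 0.579, and −0.27 without sham RV replicate 1). For all 3 genes the lowest library was VO RV replicate 3, whose gene-length trend was −0.13, and without it the values of Thra and Rxra were −0.14 and −0.31.

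Thrb was at 2.80, 2.25 and 1.46 FPKM in VO RV and overlapped with sham RV (log2 fold change −0.20). Its direction rested on VO RV replicate 3, without which the log2 fold change was 0.01. Rxrg, at 48.5, 34.2 and 37.1 FPKM, had both its highest library of all 12 and 2 libraries below sham RV in this group (−0.08, and 0.02 without VO RV replicate 2). The remaining genes overlapped as well: Ncoa1 was at 9.51, 9.76 and 8.12 FPKM (−0.20), Ncor1 at 10.3, 11.6 and 10.1 FPKM (−0.14), and Rxrb at 16.5, 12.2 and 14.6 FPKM (−0.12). Without VO RV replicate 3 the value of Ncoa1 was −0.12, and without sham RV replicate 1 that of Ncor1 was −0.09. That of Rxrb was −0.009 without VO RV replicate 2. With the gene-length trend removed the values of Ncoa1 and Ncor1 were −0.12 and −0.04. VO RV replicate 2, with the atrial and fibroblast markers above those of the other libraries, was the highest of its group for Ncoa1, Ncoa2 and Ncor1 and the lowest for Rxrb and Rxrg.

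The fourth comparison set the loaded ventricles against each other. Between VO LV and VO RV 0 of the 8 genes passed the adjusted threshold in limma, against 0.00719% of all tested genes, and 1 (Rxra, log2 fold change 0.39) passed at an unadjusted p, against 3.85% of all genes that were higher in the LV. Thra and Thrb were above VO RV in every VO LV library, 2 of the 8, against 8.45% of all tested genes. Their log2 fold changes were 0.18 (SE 0.097) and 0.44 (SE 0.242). Without VO RV replicate 3 the values were 0.10 for Thra, 0.23 for Thrb and 0.23 for Rxra. Of the 7 fibroblast markers 5 were lower in every VO LV library than in every VO RV library (median log2 fold change −0.53). At an unadjusted p 5 were lower (71.4%, against 7.4% of all tested genes in either direction). Their sum was 2410, 4692 and 2909 FPKM in the VO RV libraries. Of the 6 cardiomyocyte markers 4 were higher without overlap (median 0.31), against 8.45% of all tested genes. The part of both lists in these values was not tested. The median of the 8 was 0.19, on the other side of 0 from the −0.39 between sham ventricles.

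The last comparison took the response of the LV minus that of the RV in the same model. Here 2 of the 8 genes, Rxra and Ncoa2, passed the adjusted threshold in limma, both toward a higher response in the LV, against 4.19% of all tested genes (3.46% in that direction). At an unadjusted p, 5 of the 8 (Thra, Thrb, Rxra, Ncoa1 and Ncoa2) passed, all toward a higher LV response, against 13.1% of all tested genes. The median difference was 0.51 on the log2 scale, and that of all tested genes was −0.04. The difference was also above 0 for 5 of the 6 cardiomyocyte markers, of which 2 were called (median 0.54), and Myh6 and Ryr2 of this list are also among the heart genes that the hormone induces. It was below 0 for 6 of 7 fibroblast markers (median −0.34), 6 of 6 macrophage markers (−0.41), 5 of 5 endothelial markers (−0.28) and 5 of 5 red blood cell markers (−0.66). The same held for 6 of 6 atrial cardiomyocyte markers (−0.33) and 4 of 6 smooth muscle and pericyte markers (−0.38), of which 2 were above 0. The part of these markers was not tested. For Thra and Rxra VO lay above sham in every LV library and below sham in every RV library, 2 of the 8, against 3.37% of all tested genes.

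For Ncoa2 the difference of responses was 1.42 on the log2 scale (SE 0.311, limma adjusted p = 0.0367), made up of 0.91 in the LV and −0.52 in the RV (−0.27 there when sham RV replicate 1 was left out). This call was lost without sham LV replicate 1 (adjusted p = 0.0706) or 2 (0.0771), sham RV replicate 1 (0.0812) or 2 (0.0773), VO LV replicate 2 (0.0690) or 3 (0.103), or VO RV replicate 3 (0.0902). It was kept with the gene-length trend removed (1.32, limma adjusted p = 0.0412) and with voom (1.56, limma adjusted p = 0.0215), and lost with the replicate number as a block (limma adjusted p = 0.0746) and with no filter on low values (0.0721).

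For Rxra the difference was 0.99 (SE 0.249, limma adjusted p = 0.0491), made up of 0.53 and −0.46. This call was lost without sham LV replicate 1 (adjusted p = 0.0950) or 2 (0.104), sham RV replicate 1 (0.115) or 2 (0.0890), VO LV replicate 1 (0.0886), 2 (0.0615) or 3 (0.128), or VO RV replicate 3 (0.111). With the gene-length trend removed its size was unchanged to 2 decimals and its adjusted p was 0.0558, and the call was also lost with the block (limma adjusted p = 0.0777) and with no filter (0.0888). Without the 2 RV libraries highest in atrial markers, the difference was 1.33 for Ncoa2 (limma adjusted p = 0.0609) and 0.90 for Rxra (0.1).

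The receptors themselves lay near the threshold. The difference was 0.53 for Thra (SE 0.137, limma adjusted p = 0.0535) and 1.10 for Thrb (SE 0.342, limma adjusted p = 0.0843). With voom they were 0.53 (limma adjusted p = 0.0481) and 1.43 (0.0478), and Thra also passed without VO RV replicate 1 (limma adjusted p = 0.0346). Without VO LV replicate 3 the adjusted p of Thra was 0.126, and without VO RV replicate 3 that of Thrb was 0.191. Without the 2 RV libraries highest in atrial markers they were 0.115 and 0.167. Ncoa1 (0.49, limma adjusted p = 0.138), Ncor1 (0.34, limma adjusted p = 0.174) and Rxrg (0.28, limma adjusted p = 0.416, and 0.13 without sham LV replicate 2) followed, and Rxrb was at −0.03. After removal of the gene-length trend the values were 0.47 for Thra, 0.94 for Thrb, 0.32 for Ncoa1 and 0.15 for Ncor1.

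Since both genes encode receptors of the same hormone, and coactivators and corepressors compete for the same receptors, the proportions within each library were also compared. These ratios use FPKM, which are per length, and none was tested. The values are per gene and do not tell its splice products apart, so they are not levels of hormone-binding receptor. Thra was 20.7, 41.4 and 24.7 times Thrb in sham LV and 17.5, 19.3 and 21.4 times in sham RV. In VO LV the ratio was 15.4, 16.5 and 14.6, below every sham LV library, and in VO RV it was 16.2, 18.7 and 25.6. Thrb thus made up 3.62 ± 1.15% of the summed receptor FPKM in sham LV against 6.07 ± 0.358% in VO LV, and 4.93 ± 0.475% in sham RV against 4.88 ± 1.04% in VO RV (SD, n = 3).

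The proportions of the retinoid X receptors were compared in the same way. Rxra was 1.02, 0.769 and 1.09 times Rxrb in sham LV, below all 9 other libraries except VO RV replicate 3 (0.945). The ratio was 1.57 ± 0.386 in VO LV, 1.56 ± 0.326 in sham RV and 1.23 ± 0.285 in VO RV (SD, n = 3). Rxrg held 49.0 ± 5.12% of the family's FPKM in sham LV against 48.4 ± 1.44% in VO LV, and 51.3 ± 4.19% in sham RV against 55.5 ± 2.34% in VO RV. All 3 VO RV libraries were above all 3 VO LV libraries in this share (52.8% or more against 49.7% or less).

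Ncoa2 was 0.396, 0.384 and 0.460 times the corepressor Ncor1 in sham LV, below every sham RV library (0.905, 0.589 and 0.582). In VO LV the ratio was 0.582, 0.813 and 0.758, above every sham LV library, and in VO RV it was 0.515, 0.583 and 0.444. Ncoa1 kept closer to Ncor1, with a ratio of 0.913 ± 0.017 in sham LV against 0.978 ± 0.121 in VO LV, and 0.899 ± 0.036 in sham RV against 0.859 ± 0.062 in VO RV (SD, n = 3). The p160 coactivators thus differed in how they stood to the corepressor, with the groups of Ncoa1 overlapping between sham LV and sham RV.

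**Figure D4:**
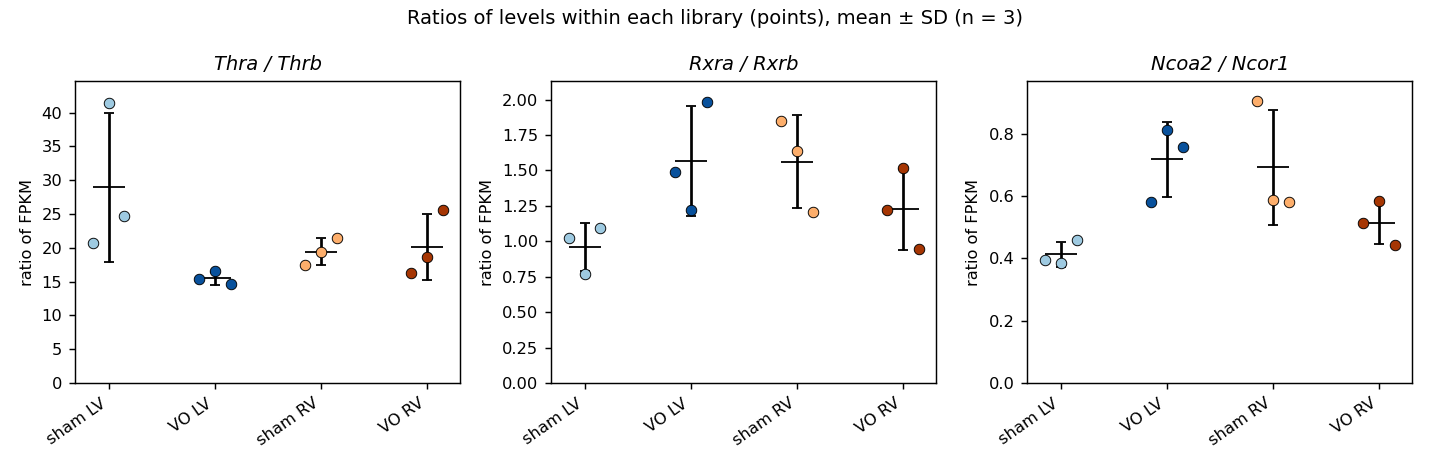
Ratio of FPKM (y axis, from 0) within each library (points) for Thra over Thrb, Rxra over Rxrb and Ncoa2 over Ncor1 in the 4 groups, with mean and SD of 3 libraries. In the sham LV libraries Ncoa2 is 0.384 to 0.460 times Ncor1, below the 3 VO LV libraries at 0.582 to 0.813.

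Over the 12 libraries the 8 genes did not all move alike. Among Thra, Thrb, Rxra, Ncoa1, Ncoa2 and Ncor1 the 15 pairwise Pearson correlations of log2 values were 0.75 to 0.93, the highest for Thra with Rxra. Rxrg correlated with these 6 at 0.39 to 0.64, and Rxrb with all others at −0.57 to −0.12. These are descriptions over 12 libraries that share group, library and gene-length trend. Among 8631 tested genes with a mean of at least 5 FPKM, the most similar to Thra were AABR07044711.1 (r = 0.97), the kinase gene Alpk2 (0.97) and the phosphatase subunit gene Ppp2r3a (0.97), which was also the third for Thrb after Vopp1 and Ercc3. Those for Rxra were Herc3, Zc3h7b and Ptgfr, and those for Ncoa2 were Foxn3, Mfhas1 and Akap13. Ncoa1 was followed most closely by Mef2a (0.97), a muscle transcription factor, with Ireb2 and Ubr3, and Ncor1 by Rnf4, Nfia and Esyt2. The closest for Rxrg were Cab39l (0.90), Cdc37l1 and Elk1, and for Rxrb Gramd4 (0.92), Cirbp and Oaz1.

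The other genes of the pathway were taken from 5 lists of 66 genes, of which 63 had a row and 57 were tested. The first holds genes for hormone entry and deiodination. Of its 6 tested genes, Ttr, which encodes the hormone carrier transthyretin, was higher in sham LV than in sham RV (19.1 ± 2.18 against 13.4 ± 1.68 FPKM, SD, n = 3). Its log2 fold change was 0.50 (limma adjusted p = 0.0484). This was 1 of 6, against 3.86% of all tested genes, and 0 passed in any VO comparison. The shares of all tested genes there were 0.0935% (LV), 0.0% (RV), 0.00719% (loaded ventricles) and 4.19% (difference of responses). The call for Ttr, whose transcript has 701 bases in the table, was lost with the gene-length trend removed (0.34, limma adjusted p = 0.0877) and without sham RV replicate 1 (limma adjusted p = 0.174). The transporter gene Slc16a10 (MCT10) had a log2 fold change of −0.37 between the sham ventricles and of 0.46 after VO in the LV. Its level was low, with group means of 1.74 to 2.57 FPKM. Dio1, the deiodinase of liver and kidney, lay between 0 and 0.0797 FPKM in all libraries and was not tested, and Dio3, which inactivates the hormone, was not analysed here.

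Of the 21 other coactivators tested, 1 passed between the sham ventricles (4.76%, near the 3.86% of all tested genes). This was Ppargc1a (PGC-1alpha, a coactivator of mitochondrial genes), with a log2 fold change of −0.78 (limma adjusted p = 0.0496), and its difference of responses was also called (1.31, limma adjusted p = 0.0329). The first call was lost with the gene-length trend removed (limma adjusted p = 0.0523) and without sham RV replicate 1 (0.176). The second was lost without VO LV replicate 3 (limma adjusted p = 0.0893). The Mediator subunit gene Med1 and the acetyltransferase gene Ep300 were at −0.66 and −0.76 between the sham ventricles (limma adjusted p = 0.0684 and 0.0808). The related acetyltransferase gene Crebbp was at −0.17 and the third p160 gene, Ncoa3, at −0.14 (limma adjusted p = 0.567). Between the sham ventricles 8 of the 21 were above 0, among them the acetyltransferase gene Kat2a, chosen after its values were seen, at 0.50 (limma adjusted p = 0.140) and at −0.50 after VO in the LV. The median over the list was −0.17 between the sham ventricles, 0.16 after VO in the LV and −0.10 after VO in the RV.

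Of the 9 other corepressors tested, 0 passed the adjusted threshold of limma in any comparison. At an unadjusted p 1 passed between the sham ventricles, 1 after VO in the LV, 0 after VO in the RV and 1 in the difference of responses, which was Tbl1xr1, a subunit of the Ncor1 complex, each time. These shares of 11.1% were below the 17.8%, 15.7% and 23.1% of all tested genes. Its log2 fold changes were −0.47 between the sham ventricles, 0.48 after VO in the LV and 0.62 in the difference. Hdac3 was at 0.29 between the sham ventricles, and Hr, a corepressor gene that the hormone induces in brain, was low at 0.749 to 1.10 FPKM by group mean (−0.28).

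The hormone's known targets in heart muscle formed the next lists. Of 15 tested genes that it induces, 5 were called as lower in the sham LV group, against 3.86% of all tested genes called in either direction. These were the calcium pump Atp2a2 (−0.82), the ryanodine receptor Ryr2 (−0.94), the beta-adrenergic receptor Adrb1 (−0.74), the pacemaker channel Hcn4 (−1.80) and the sodium pump subunit Atp1b1 (−0.59), all on the log2 scale. All 5 calls were lost without sham LV replicate 1 or 2 or sham RV replicate 1 or 2. The call of Atp2a2 was also lost with the gene-length trend removed (limma adjusted p = 0.0515). None was called after VO in the LV or in the RV by limma. At an unadjusted p, 9 were higher and 1 lower after VO in the LV (9.27% of all tested genes were higher), and 0 higher and 5 lower in the RV (3.06% of all tested genes were lower). Above 0 between the sham ventricles, and named after their values were seen, were the troponin gene Tnni3 (0.57, and −0.45 after VO in the LV) and the potassium channel gene Kcna5 (0.60), both without overlap between the sham groups. In the difference of responses 7 of the 15 were called, against 4.19% of all tested genes, all toward a higher LV response: Myh6 (0.89), Atp2a2 (1.23), Adrb1 (1.26), Ryr2 (1.61), Hcn2 (1.12), Atp1b1 (0.84) and the transcription factor Klf9 (1.22). Median log2 values of the list were −0.57 between the sham ventricles, 0.55 after VO in the LV and −0.29 after VO in the RV.

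Of 6 tested genes that the hormone represses in heart, 4 had a log2 fold change below 0 and 2 above 0 between the sham ventricles, 4 above and 2 below after VO in the LV, and 6 below after VO in the RV. Of all tested genes 48.4% were below 0 in the first, 47.2% above 0 in the second and 49.4% below 0 in the third of these comparisons. The sodium-calcium exchanger Slc8a1 (log2 fold change −1.87) and the adenylyl cyclase Adcy5 (−0.90) were called lower in sham LV, 2 of the 6 against 3.86% of all tested genes called in either direction. These 2 genes, with the slow myosin Myh7 (1.18), were called in the difference of responses (2.63 for Slc8a1 and 1.33 for Adcy5), 3 of the 6 against 4.19% of all tested genes, and Pln, the inhibitor of the calcium pump, was not (0.31). The fast myosin Myh6 and the slow myosin Myh7, which the hormone drives in opposite directions, were at −0.50 and −0.46 between the sham ventricles, and at 0.55 and 0.45 after VO in the LV. The median of the repressed list was −0.28 between the sham ventricles, 0.28 after VO in the LV and −0.35 after VO in the RV, each on the side of the induced list's median, though not every gene of the list lay there.

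Over the 5 lists, 9 of 57 genes were called between the sham ventricles (15.8%, against 3.86% of all tested genes), 0 after VO in the LV, 0 after VO in the RV, 0 between the loaded ventricles and 11 in the difference of responses (19.3%, against 4.19%), by limma. At an unadjusted p the counts were 21 (36.8%, against 17.8% of all tested genes), 20 (35.1%, against 15.7%), 8 (14.0%, against 4.91%), 13 (22.8%, against 7.4%) and 24 (42.1%, against 23.1%). The lists were chosen with earlier results of these data known, so that their shares describe these genes and are no independent evidence. Without the 2 RV libraries highest in atrial markers the counts of 9 and 11 were each 0, and they were also each 0 without sham LV replicate 1 or 2 or sham RV replicate 1 or 2. In these settings the calls over all tested genes fell from 537 to between 0 and 7, and from 583 to between 0 and 4. The count between the sham ventricles was 4 without sham RV replicate 3 or VO LV replicate 1 and 1 without VO LV replicate 2. Over all tested genes the calls were then 185, 173 and 5. For the difference the count of pathway genes was 0 without VO LV replicate 2 or 3, 6 without VO LV replicate 1, and 4 when VO RV replicate 3 was left out. Over all tested genes the calls were then 0, 0, 239 and 110. After VO in the LV the count of 0 became 8 without VO RV replicate 3, 4 without sham LV replicate 3 and 3 without VO RV replicate 1. Over all tested genes the calls rose from 13 to 554, 295 and 174 in these settings.

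**Figure D5:**
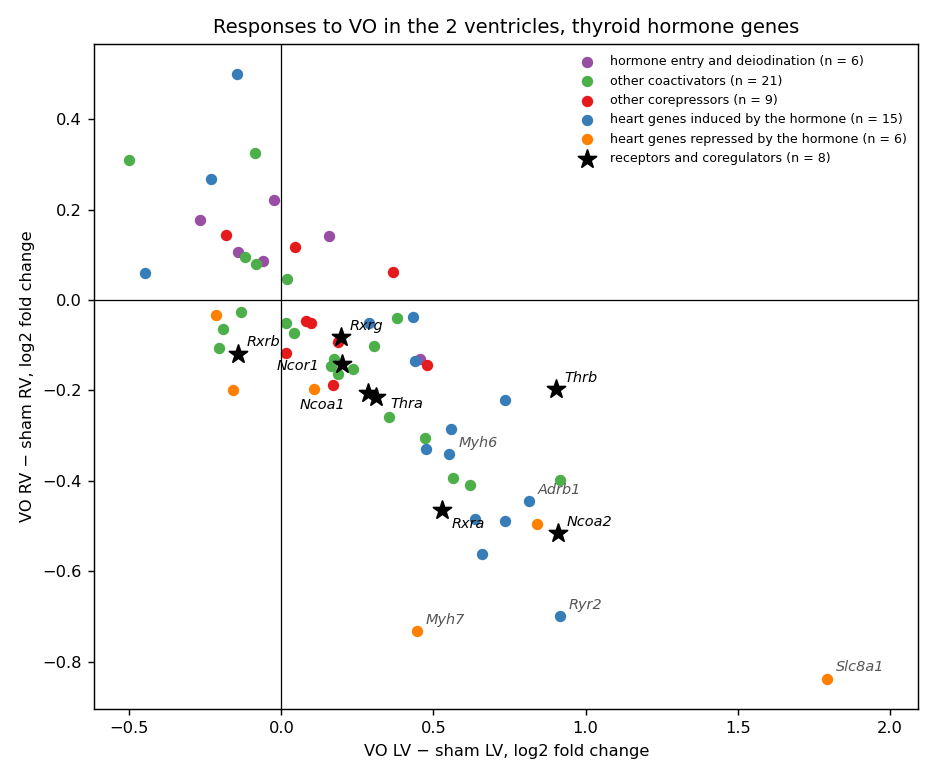
Log2 fold change after VO in the LV (x axis) and in the RV (y axis) for the 8 receptor and coregulator genes (stars) and the 57 genes of the pathway lists (points, coloured by list). Of the 8 stars 7 lie to the lower right, with Rxrb the exception at −0.14 and −0.12, and Slc8a1 lies farthest out at 1.79 and −0.84.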

How the data were processed

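RNA of LV and RV free wall was sequenced in 12 libraries, 3 in each of 4 groups taken from the labels. For the RNA extraction the labels name Trizol and the study's methods a PureLink kit. The authors enriched poly-A mRNA, prepared libraries with a NEBNext Ultra kit and sequenced paired ends. The submitters' processing notes name HISAT2 2.0.5, StringTie 1.3.3b, featureCounts 1.5.0-p3, DESeq2 1.20.0 and GATK 3.7. The deposited values are FPKM per gene, made by the authors from read counts. Genome build, annotation release and strand setting are not given in the sources used here. Below 200 reads, 100% of the deposited FPKM were whole multiples of what 1 read is worth (tolerance 0.02), so that reads per gene could be recovered. The depth limits the precision for Thrb most. All value columns were mapped (0 left over).

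Each library was rescaled by its median ratio to the gene means, and log2(FPKM + 0.5) was computed. The 13910 genes with a mean of at least 0.5 FPKM were fitted by limma 3.58.1 under R 4.3.3: lmFit with the 4 groups in a single model, contrasts.fit for the 5 comparisons and eBayes with a mean trend. Benjamini-Hochberg adjustment ran over all of them. No count model other than voom on the recovered reads, as an alternative, was run. Other alternatives were the 2 RV libraries highest in atrial markers left out, chosen after the data were seen, pseudocounts of 0.1 and 1, no filter, quantile normalization, lowess removal of the gene-length trend per library, separate fits, the replicate number as a block, and each library left out in turn. The members, the gene lists and the marker lists were chosen with earlier results of these data known. From the pathway lists the text names every called gene, at most 4 genes per list and comparison by smallest p, and a fixed set, some of which are not reported here; similar genes are the 3 with the highest r. Tbx5 and Hand1 are the left ventricular markers of the marker lists. Promoter windows come from RefSeq (GRCr8) and were not compared with the positions in the deposited table.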

Additional observations from a re-analysis of the deposited data

Results flagged for a closer look

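The response to VO differed between the LV and RV in the limma model for 13 of the genes described, all with a higher LV response (adjusted p under 0.05 and fold change over 1.3). Among the receptors and coregulators these were Ncoa2, with a log2 difference of 1.42, and Rxra, with 0.99. Among the heart genes that thyroid hormone induces they were Ryr2 (1.61), Adrb1 (1.26), Atp2a2 (1.23), Klf9 (1.22), Hcn2 (1.12), Myh6 (0.89) and Atp1b1 (0.84). Among those it represses they were Slc8a1 (2.63), Adcy5 (1.33) and Myh7 (1.18), and among the coactivators Ppargc1a (1.31). In each case the LV value was above 0 and the RV value below 0, and neither response alone passed the adjusted threshold. The share of all tested genes called in this comparison was 4.19%. This difference equals that between the loaded ventricles minus that between the sham ventricles, so the sham libraries weigh on every call. None of the 13 was called without sham LV replicate 1 or 2 or sham RV replicate 1 or 2. Over all tested genes the 583 calls fell to 0 to 4 in these settings.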

How the results depend on the processing

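The count of receptor and coregulator genes called between the sham ventricles (1) was 0 with no filter, with separate fits, with the replicate number as a block and without the 2 RV libraries highest in atrial markers (sham RV replicate 1 and VO RV replicate 2), and 0 to 2 with each library left out in turn (2 to 7 at an unadjusted p). After VO in the LV (0) it was 2 with voom and 0 to 2 with each library left out. After VO in the RV and between the loaded ventricles it was 0 with every library left out (0 to 2 at an unadjusted p for each). For the difference of responses (2) it was 0 with no filter, with the block and without these 2 libraries, 1 with quantile normalization, 1 with the length trend removed, 4 with voom (Thra, Thrb, Rxra and Ncoa2), and 0 to 3 with each library left out. The count of pathway genes between the sham ventricles (9) was 0 with no filter, with the block and without these 2 libraries, 5 with the length trend removed, and 0 to 11 with each library left out. After VO in the LV (0) it was 3 with separate fits, 6 with voom and 0 to 8 with each library left out. For the difference (11) it was 0 with no filter, with the block and without these 2 libraries, and 0 to 14 with each library left out. After VO in the RV and between the loaded ventricles it was 0 to 0 with each library left out. Calls over all tested genes moved as well. Between the sham ventricles (537) they were 8 with no filter, 314 with separate fits, 3 with the block and 7 without these 2 libraries. For the difference (583) they were 21 with no filter, 1 with the block, 2 without these 2 libraries and 802 with voom. After VO in the LV (13) they were 119 with separate fits and 341 with voom. With each library left out these ranged from 0 to 872, 0 to 1004 and 0 to 554. The cause was not tested, except that no filter raises the number of genes tested to 21603 and that leaving out libraries lowers the number of samples.

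The labels do not say whether LV and RV libraries with the same number came from the same animal. Deviations of libraries with the same number correlated at −0.28 to 0.12 and those with different numbers at −0.16 to 0.27. These pairs include sham with VO libraries, which cannot share an animal. Between LV and RV libraries of the same number, r was 0.045, 0.038 and 0.12 in sham and 0.054, −0.051 and −0.22 in VO. So few pairs cannot decide whether the numbers pair the libraries. Of 832 alternative values for single genes, 777 kept direction and call, 34 lost the call, 8 gained it and 13 turned direction. All 34 losses were among the 61 alternatives of the 3 calls: 11 of 21 for Ncoa2 between the sham ventricles, and 13 of 20 for Rxra and 10 of 20 for Ncoa2 in the difference of responses. Those that turned direction were Rxrg after VO in the RV (0.016 without VO RV replicate 2, range −0.23 to 0.016 over libraries left out), Thrb after VO in the RV (0.011 without VO RV replicate 3, range −0.37 to 0.011), and Rxrb between the sham ventricles (−0.023 without sham RV replicate 2, range −0.023 to 0.14) and after VO in the RV (0.012 without these 2 libraries). Between the loaded ventricles they were Rxrb (−0.063 without VO RV replicate 2, range −0.063 to 0.14, and −0.063 without these 2 libraries) and Ncor1 (−0.027 with the length trend removed, −0.0011 when VO LV replicate 3 and −0.012 when VO RV replicate 3 was left out, range −0.012 to 0.092). For the difference of responses Rxrb ranged from −0.13 to 0.074 and was above 0 without sham LV replicate 2, sham RV replicate 2, VO LV replicate 3 or VO RV replicate 1. Depth limits Thrb most, with 88 reads in its lowest library.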
